A study of Homo sapiens with 5 samples.

Results

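The serpins are one superfamily of protease inhibitors and their relatives, and their RNA levels were followed here in MDA-MB-231 cells treated with SAHA. Members were chosen by name: every probe set that the array annotation maps to 1 gene with a symbol starting with SERPIN was taken, and where a gene had several, the one of highest mean level represented it. This gave 49 of 54675 probe sets and 31 of the 19775 genes measured this way, including the pseudogenes SERPINB9P1 and SERPINA2, the latter counted with clade A. RefSeq lists 34 protein-coding serpins, and 29 of them are among the 31. The others were not analysed here.

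MDA-MB-231 is an established human breast cancer cell line with mesenchymal features. SAHA (vorinostat) is a histone deacetylase inhibitor: it keeps acetyl marks on histones and on further proteins. The DMSO group, 3 arrays, received the solvent alone, and the SAHA group, 2 arrays, received 2 uM SAHA. Both groups were harvested at 30 h, and the labels name no other genotype or agent. A transfection is mentioned in the labels' extraction text and described nowhere else. Nothing in the labels says that the arrays of a group came from separate cultures, so each p-value is set by array-to-array spread, which could be technical only.

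Inhibitory serpins act as suicide substrates: a protease cuts the exposed reactive centre loop, the serpin snaps into a more stable form and the protease stays trapped on it in a covalent complex. Family members are sorted by sequence into clades, lettered A to I in humans. Most clade A serpins are plasma proteins made by the liver, clade B serpins lack a classical signal peptide and act mainly inside cells, and members of the other clades regulate clotting, clot lysis, complement and neural tissue. A few have lost inhibition, among them SERPINH1, a collagen chaperone, and SERPINB5. Most human clade B genes lie in a cluster at 18q21 and the rest at 6p25, and most clade A genes share a cluster at 14q32.

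Levels are log2 of the deposited intensity, and a difference is the mean of the SAHA arrays minus that of the DMSO arrays. A gene is said to have risen or fallen where its adjusted p from limma was under 0.05, with Benjamini-Hochberg adjustment over all 19775 genes. Median intensity per array was 88.8 to 91.2, and arrays correlated at 0.9972 to 0.9986 within a group and at 0.9791 to 0.9801 between groups. The ACTB probe sets for the 3' and 5' ends of the transcript differed by 3.29 (log2) on DMSO array 1 and by 2.04 to 2.22 on the other 4, so DMSO array 1 stood apart on this sign of RNA integrity. Its part in the results was not tested beyond leaving it out. Of 10 mesenchymal breast markers 8 lay above the median gene in level, with VIM at a DMSO mean of 13.97. Of 10 luminal markers 5 did, with KRT18 at 13.51, while the receptors ESR1 (7.01) and PGR (4.49) lay below it. The 24 poly-A control probe sets above intensity 100, whose RNA is added during preparation, had a median difference of 0.39. Centring the arrays on these controls moves the median gene from -0.03 to -0.40. Of the genes that passed, those whose direction turns under this centring are named below.

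Of the 31 serpins, 8 changed: SERPINI1, SERPINB7, SERPINB1, SERPINE2, SERPINB4 and SERPINB9 rose, and SERPINH1 and SERPINB8 fell. That is 25.8% of the family, beside 29.6% of all genes. Rises made up 6 of 31 beside 14% of all genes, and falls 2 of 31 beside 15.6%. A change of at least 2-fold that passed the test was seen for 4 serpins, or 12.9%, beside 5.75% of all genes. The median serpin difference was 0.0085, close to the -0.03 of all genes. The arrays of the 2 groups did not overlap for 11 serpins, or 35.5%, beside 48.1% of all genes. Both SAHA arrays were above every DMSO array for 8 serpins, beside 22.1% of all genes, and below for 3, beside 26%.

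The shares differed with signal. Only 7 serpins had a mean log2 level above that of the median gene, and 6 of the 7 changed, beside 48.4% of all genes above it. That level is a mean over all 5 arrays, and SERPINI1 is among the 7 only through its SAHA arrays, so the 6 of 7 includes a gene that its own rise placed there and is no support for a difference from other genes. The other 24 lay at or below it, and 2 of them changed (SERPINB7 and SERPINB4), beside 10.8% of all genes there. The table holds no detection calls, so it is not known which of the dim serpins were above background.

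**Figure D1:**
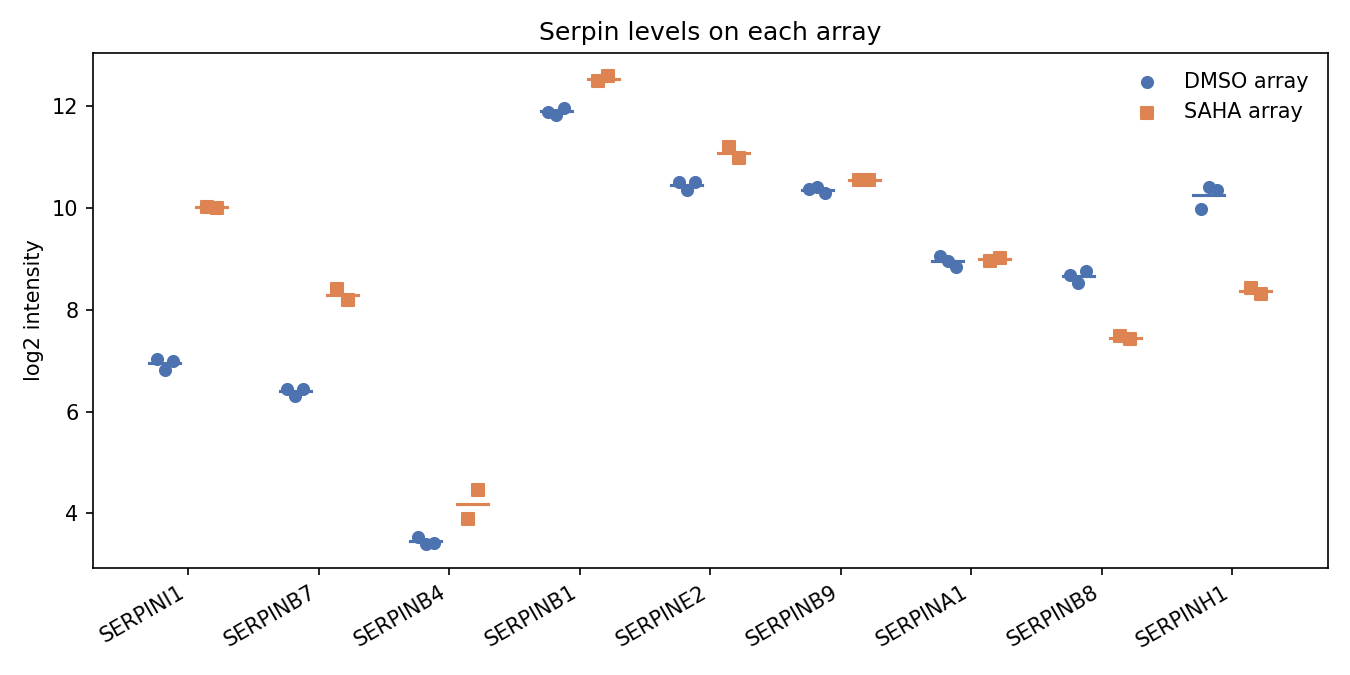
Log2 intensity of the 8 serpins that passed the test and of SERPINA1 on each array (circles, 3 DMSO arrays; squares, 2 SAHA arrays; lines, group means). SERPINI1 and SERPINB7 sit well above their DMSO arrays, SERPINH1 and SERPINB8 below theirs, and SERPINA1 overlaps.

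Promoter sequence is shown for 5 genes with large changes or near-identical neighbours, as the 250 bases before a start site in RefSeq (build GRCh38.p14). SERPINI1, at chr3:167735471-167735720 on the plus strand, rose most of the family. SERPINB7 (the last of its listed starts, chr18:63777531-63777780, plus strand) and SERPINB8 (chr18:63969831-63970080, plus strand) are the 18q21 genes with the largest rise and the largest fall. Capitals in these 3 sequences mark TGANTCA, a pattern that reads the same on both strands. It is looser than the AP-1 core of FOS and JUN, which has C or G in the middle.
SERPINI1: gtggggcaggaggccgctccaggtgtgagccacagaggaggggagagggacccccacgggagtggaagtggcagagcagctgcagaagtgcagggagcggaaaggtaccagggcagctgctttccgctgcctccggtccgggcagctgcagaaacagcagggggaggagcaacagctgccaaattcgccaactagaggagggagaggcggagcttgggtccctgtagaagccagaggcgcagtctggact
SERPINB7: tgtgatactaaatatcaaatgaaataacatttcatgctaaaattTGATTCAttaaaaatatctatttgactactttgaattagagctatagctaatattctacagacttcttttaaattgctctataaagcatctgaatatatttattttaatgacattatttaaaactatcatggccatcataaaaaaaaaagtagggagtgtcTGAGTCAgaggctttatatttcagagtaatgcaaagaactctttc
SERPINB8: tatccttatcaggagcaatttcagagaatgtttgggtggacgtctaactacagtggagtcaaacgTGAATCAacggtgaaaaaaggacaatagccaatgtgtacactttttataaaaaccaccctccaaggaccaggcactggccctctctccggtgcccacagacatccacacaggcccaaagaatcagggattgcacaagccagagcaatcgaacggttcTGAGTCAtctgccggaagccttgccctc
Both SERPINB7 and SERPINB8 matched TGANTCA at 2 places and SERPINI1 at none, and SERPINB7 and SERPINB8 moved in opposite directions. In SERPINB7 and in SERPINB8, only the match nearest the start, TGAGTCA, had C or G in the middle. Of the other 2 SERPINB7 windows, 1 held the pattern, also at 2 places, and the first listed did not. The window printed was chosen after the matches were seen. The SERPINB7 matches lie at -206 to -200 and at -45 to -39 from the start, and those of SERPINB8 at -185 to -179 and at -28 to -22. Of all 35116 promoter windows in the table (the 250 bases plus 50 after the start), 7.71% hold the pattern at least once and 181, or 0.515%, hold it at 2 or more places.

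SERPINB3 (chr18:63661894-63662143, minus strand) and SERPINB4 (chr18:63644257-63644506, minus strand) are neighbours of near-identical sequence. The windows lie before the start site, so their identity says nothing of whether the probe sets of the pair share targets. Capitals mark the bases at which the pair differs.
SERPINB3: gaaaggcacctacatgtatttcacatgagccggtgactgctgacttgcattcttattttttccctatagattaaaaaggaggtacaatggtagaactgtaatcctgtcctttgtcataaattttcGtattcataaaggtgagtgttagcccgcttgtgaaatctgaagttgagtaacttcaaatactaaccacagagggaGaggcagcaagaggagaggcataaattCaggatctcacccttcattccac
SERPINB4: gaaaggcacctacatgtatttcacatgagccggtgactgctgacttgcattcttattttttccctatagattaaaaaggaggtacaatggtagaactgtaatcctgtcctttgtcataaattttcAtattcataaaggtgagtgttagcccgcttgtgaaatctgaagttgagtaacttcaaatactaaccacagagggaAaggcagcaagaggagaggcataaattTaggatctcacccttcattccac
The pair differed at 3 of these 250 bases and at 4 of the 300 of the full window, an identity of 98.7%.

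Of the 31 serpins, 23 had a promoter in the table, with 33 windows in all, and these included the 8 that changed. TGANTCA lay in 6 of 10 windows of the 18q21 genes, from 5 of 7 genes: SERPINB5, SERPINB12, SERPINB13, SERPINB7 and SERPINB8. It lay in 1 of 23 windows of the other serpins, that of SERPINI2. The matches of SERPINB5, SERPINB12 and SERPINI2 had A or T in the middle, unlike the AP-1 core. Of those 5 cluster genes, only SERPINB7 and SERPINB8 passed the expression test. The GC box GGGCGG, bound by SP1, lay in 1 of 10 cluster windows and in 8 of 23 others, beside 45% of all windows. It was found in windows of SERPINB1, SERPINB9, SERPINE2 and SERPINH1, which changed, and of SERPINA1, SERPINA5, SERPINA10 and SERPINB5, which did not pass. TATAAA, the TATA box, lay in 4 of 10 and 5 of 23 windows, beside 11.5% of all. CAGACA, a SMAD-binding element, lay in 5 of 10 and 5 of 23, beside 16.9%. All motifs were searched on both strands, and in SERPINB7 a CAGACA on the other strand overlaps the AP-1 core nearest the start. A match in these windows is a description of sequence and says nothing of binding.

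Clade I holds neuroserpin and pancpin, both on chromosome 3. SERPINI1 encodes neuroserpin, a secreted inhibitor of tissue plasminogen activator best known in neurons. Its probe set 205352_at read 7.04, 6.82 and 6.99 on the DMSO arrays and 10.02 and 10.01 on the SAHA arrays. Both SAHA arrays lay far above every DMSO array and differed little from each other. The mean rose from 6.95 ± 0.12 (SD, n = 3) to 10.01 ± 0.0063 (n = 2), a difference of 3.06 ± 0.08 (SE) or 8.35-fold (limma adjusted p = 0.000468). Over all 18 alternative settings the difference stayed between 2.69 and 3.11. SERPINI2, a pancreatic relative, had a difference of -0.14 ± 0.11 with overlapping arrays (limma adjusted p = 0.423).

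The start site of SERPINI1 lies 829 bases from that of PDCD10, an adaptor protein mutated in cerebral cavernous malformation, which is read from the opposite strand. PDCD10 and the other neighbours were looked at after the values were seen. PDCD10 rose by 0.33 ± 0.06 (limma adjusted p = 0.0177), while the difference was -0.041 with centring on the poly-A controls. Its call was lost without DMSO array 1, 2 or 3 or SAHA array 1, with adjusted p from 0.0519 to 0.0738. GOLIM4, on the far side of SERPINI1, had a difference of 0.20 ± 0.23 (limma adjusted p = 0.566).

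Clade E was represented by SERPINE2, and clade H by its one member, SERPINH1. SERPINE2 encodes protease nexin 1, a cell-surface inhibitor of thrombin, urokinase and tissue plasminogen activator. Probe set 212190_at read 10.50, 10.36 and 10.50 with DMSO and 11.19 and 10.98 with SAHA, without overlap. The mean rose from 10.46 ± 0.08 to 11.09 ± 0.15 (SD), a difference of 0.63 ± 0.09 or 1.55-fold (limma adjusted p = 0.00744). The second probe set of the gene, 227487_s_at, read 5.05 on all 3 DMSO arrays and 4.94 and 5.09 with SAHA, and gave -0.04 ± 0.06 (limma adjusted p over probe sets = 0.709). The rise therefore rests on 1 of its 2 probe sets, and the mean of both gave 0.30. Centred on the poly-A controls, it was 0.26 and no longer passed (limma adjusted p = 0.0609).

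SERPINH1 encodes HSP47, which binds folded procollagen in the endoplasmic reticulum and does not inhibit proteases. Its only probe set, 207714_s_at, read 9.99, 10.41 and 10.35 with DMSO and 8.43 and 8.31 with SAHA. Both SAHA arrays were far below every DMSO array, the lowest of which was array 1. The mean fell from 10.25 ± 0.23 to 8.37 ± 0.08 (SD), a difference of -1.88 ± 0.15 or 3.69-fold lower (limma adjusted p = 0.00158). Without DMSO array 1 the difference was -2.01, so it was as large without the array that stood apart. Beside SERPINH1 on chromosome 11, GDPD5 rose by 1.30 ± 0.04 (limma adjusted p = 0.000483) and MAP6 had a difference of -0.16 (adjusted p = 0.17).

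In clade B, 11 members were measured, of which 4 rose, 1 fell and 6 did not pass the test, with a median difference of 0.04. Of all genes 14% rose and 15.6% fell. Without SAHA array 2, which leaves a lone SAHA array assumed to vary like the DMSO arrays, SERPINB11 (-0.28) and SERPINB12 (-0.22) also passed as lower. The 6p25 pair, SERPINB1 and SERPINB9, were both bright and both passed. SERPINB1 encodes an inhibitor of neutrophil elastase, cathepsin G and proteinase 3. Probe set 212268_at read 11.89, 11.83 and 11.97 with DMSO and 12.50 and 12.59 with SAHA. The groups did not overlap, and the mean rose by 0.65 ± 0.06 or 1.57-fold (limma adjusted p = 0.00247). All 4 probe sets of SERPINB1 were higher on both SAHA arrays, with differences of 0.65, 0.82, 1.05 and 0.41. Each passed the test over probe sets (limma adjusted p between 0.00155 and 0.0335), where 22.1% of all probe sets passed. With centring on the poly-A controls the difference was 0.27 (limma adjusted p = 0.0425).

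SERPINB9 encodes the inhibitor of granzyme B that shields cytotoxic cells and some tumours from that protease. Probe set 209723_at read 10.37, 10.41 and 10.30 with DMSO and 10.56 on both SAHA arrays, so the groups were apart by a narrow margin. The 2 deposited SAHA values were equal (intensity 1507.7), so the SAHA arrays added no spread to its test. The rise was 0.20 ± 0.05 or 1.15-fold (limma adjusted p = 0.0451), and the difference turned to -0.18 with centring on the poly-A controls. The call was kept in 2 of 18 alternative settings and lost with any one of the 5 arrays left out (adjusted p from 0.0642 to 0.135). Its other 2 probe sets each gave 0.12 with overlapping arrays. WRNIP1, on the other side of SERPINB1, had a difference of -0.04 (limma adjusted p = 0.684).

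**Figure D2:**
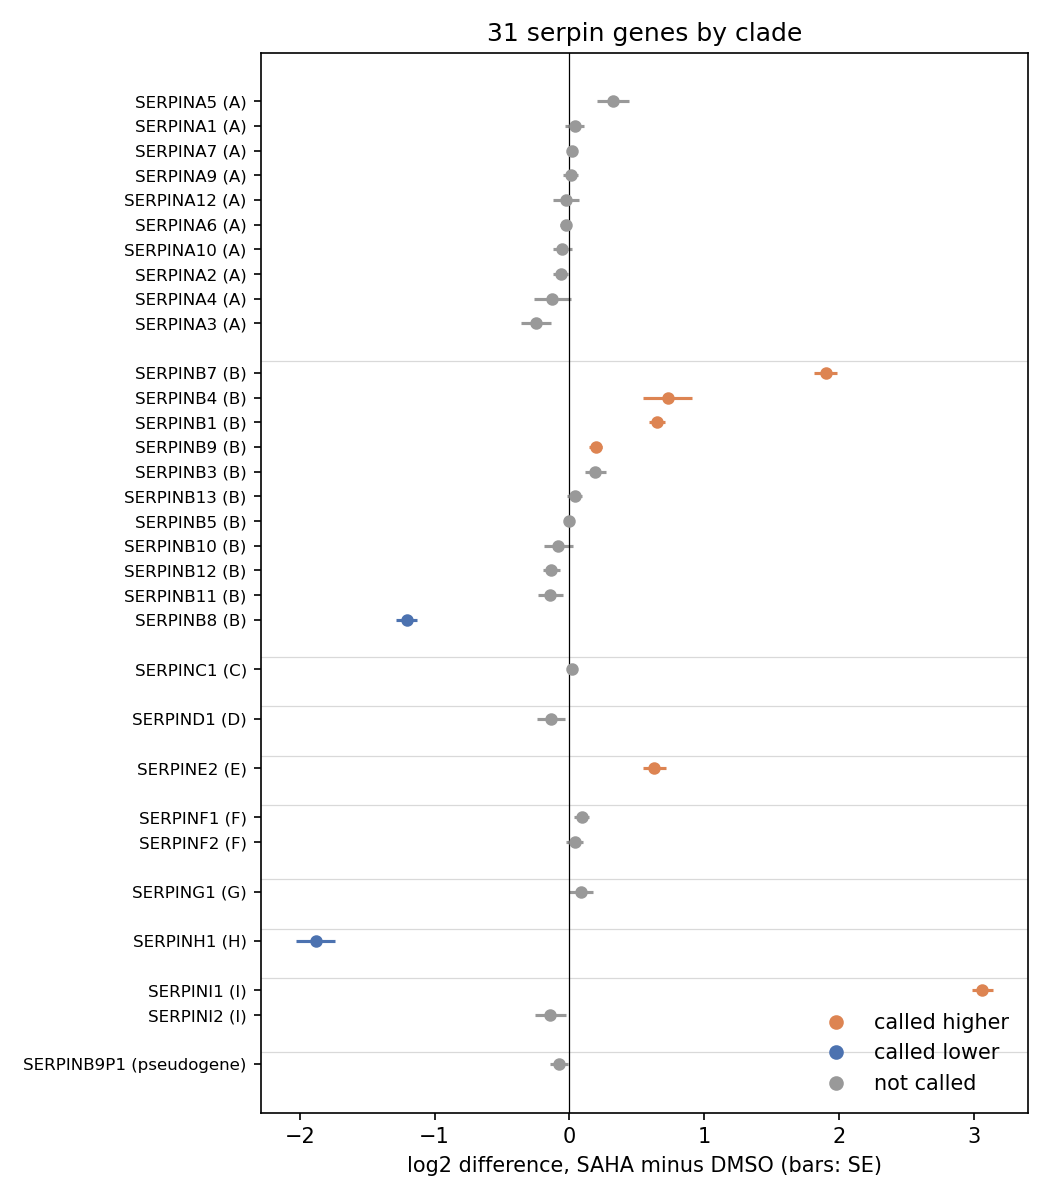
Log2 difference (SAHA minus DMSO) with its SE for each of the 31 serpin genes, grouped by clade and coloured by the limma call. All 10 clade A genes lie between -0.25 and 0.32, while clades B, E, H and I hold the 8 genes that passed.

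Along 18q21, 9 of the 10 clade B genes were measured, and within the cluster SERPINB7 and SERPINB4 rose, SERPINB8 fell and 6 did not pass, with a median of 0. Of all genes, 29.6% changed. Only SERPINB8 had a level above the median gene, and of all genes at or below that level 10.8% changed. SERPINB7 encodes megsin, known from kidney mesangium and the epidermis. Its single probe set, 206421_s_at, read 6.45, 6.30 and 6.44 with DMSO and 8.40 and 8.20 with SAHA. The lower SAHA array was far above every DMSO array, and the mean rose from 6.40 ± 0.08 to 8.30 ± 0.14 (SD). The difference was 1.90 ± 0.09 or 3.74-fold (limma adjusted p = 0.000614), and it stayed between 1.53 and 2.00 over 17 settings. The neighbours of SERPINB7 are SERPINB11 (epipin), at -0.14 ± 0.09 (limma adjusted p = 0.327), and SERPINB2.

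SERPINB8 encodes an inhibitor of furin and related proteases and closes the cluster at its far end. Probe set 206034_at read 8.68, 8.53 and 8.76 with DMSO and 7.48 and 7.42 with SAHA, both below every DMSO array. The mean fell from 8.66 ± 0.11 to 7.45 ± 0.04 (SD), a difference of -1.21 ± 0.08 or 2.31-fold lower (limma adjusted p = 0.00113). A second probe set, 1554616_at, read 7.25, 7.09 and 7.09 and then 7.07 and 7.04. It was also lowest on the SAHA arrays, but with a difference of -0.09 ± 0.07 (limma adjusted p over probe sets = 0.418), and the mean of both was -0.65 (adjusted p = 0.00171). Beyond the cluster, CDH7 had a difference of -0.04 (limma adjusted p = 0.57).

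SERPINB3 and SERPINB4 are the squamous cell carcinoma antigens, which inhibit cathepsins L, S and K and cathepsin G respectively. SERPINB4 (211906_s_at) was the dimmest serpin, at 3.53, 3.39 and 3.42 with DMSO and 3.89 and 4.46 with SAHA. The 2 SAHA arrays lay further apart than the DMSO arrays did, with no overlap of groups. The rise was 0.73 ± 0.18 or 1.66-fold (limma adjusted p = 0.042), and it ranged from 0.44 to 1.01 with 1 array left out. The call was lost without DMSO array 1, 2 or 3 (adjusted p = 0.114, 0.152 and 0.152), and with the replicate number as a block (0.72, adjusted p = 0.188). With 32 added to every intensity, which weighs dim signals less, the difference was 0.23 (adjusted p = 0.0754).

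SERPINB3 (209719_x_at) read 5.39, 5.46 and 5.51 with DMSO and 5.74 and 5.55 with SAHA. Both SAHA arrays were the higher, with a difference of 0.19 ± 0.08 that did not pass (limma adjusted p = 0.148) and turned to -0.18 when centred on the poly-A controls. A probe set that the annotation assigns to both genes, left out by the rule on 1 gene, read 5.12, 5.27 and 5.24 and then 5.45 and 5.49, a difference of 0.26. Names ending in _s_at or _x_at mark probe sets that can match several transcripts, so signal cannot be divided between SERPINB3 and SERPINB4 here.

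The remaining cluster genes are SERPINB5 (maspin), SERPINB10 (bomapin), SERPINB11, SERPINB12 (yukopin) and SERPINB13 (headpin). SERPINB5 read the same value, 5.02, on all 5 arrays. SERPINB12 was lower on both SAHA arrays, with a difference of -0.13 that did not pass. SERPINB13 had 6 probe sets with differences from -0.10 to 0.04, all with overlapping arrays. SERPINB10 differed by -0.08. Of the 9 squamous epithelial markers measured, such as KRT5, KRT14, IVL and DSG3, 0 of 9 passed limma's test, 0 at an unadjusted p under 0.05 and 0 in the unmoderated test, with a median of -0.08. Their largest differences were -0.19 for KRT13 (limma adjusted p = 0.459) and -0.18 for DSG3 (0.264), and 9 of 9 lay below the median gene in level, where 10.8% of all genes passed. Without SAHA array 2, DSG3 passed as lower (-0.33, adjusted p = 0.032). Their summed level was 8.81 to 8.87 with DMSO and 8.70 to 8.79 with SAHA. Its relation to the rises of SERPINB7 and SERPINB4 was not tested.

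**Figure D3:**
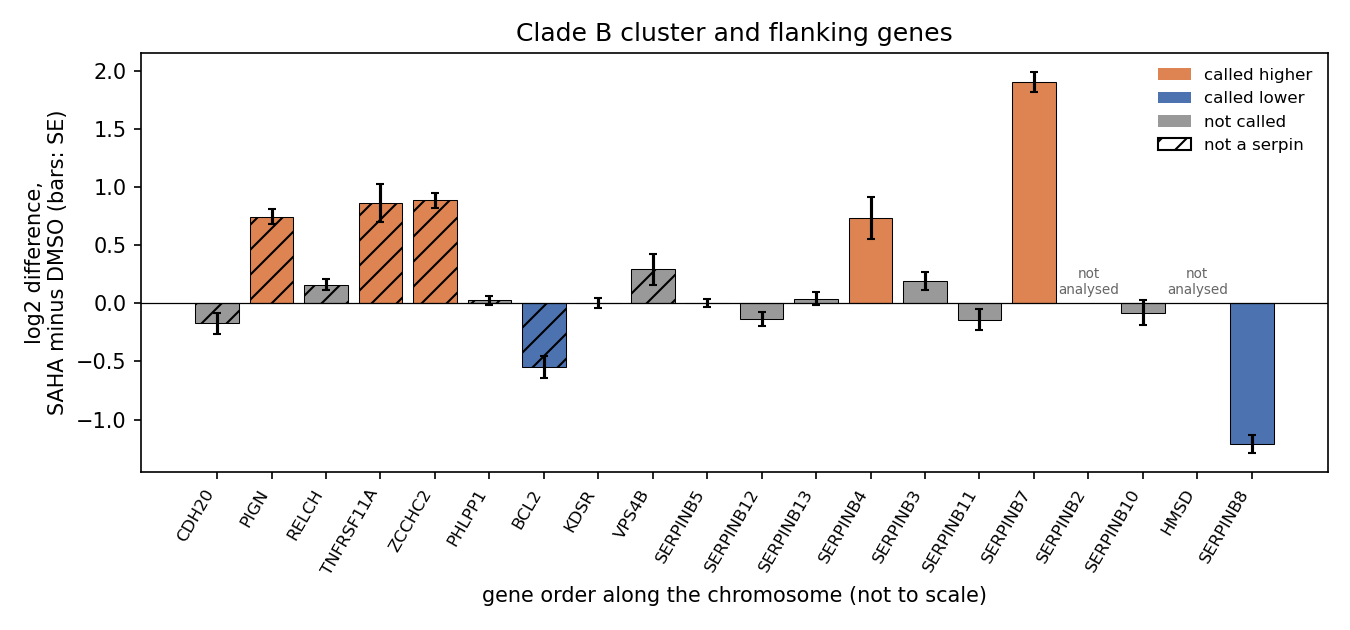
Log2 difference (SAHA minus DMSO) with its SE for the 18q21 serpins (plain bars) and the genes before them (hatched bars), in chromosome order and not to scale. SERPINB7 at 1.90 and SERPINB8 at -1.21 are separated by genes that lie near 0 or were not analysed.

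Of the 9 measured genes before the cluster, from CDH20 to VPS4B, 3 rose and 1 fell, with a median of 0.16. Of the 9, 8 lay above the median level, where 48.4% of all genes changed. ZCCHC2 rose by 0.88, TNFRSF11A, the receptor RANK, by 0.86 and PIGN, of the GPI anchor pathway, by 0.74, while the apoptosis inhibitor BCL2 fell by 0.55 (limma adjusted p = 0.00146, 0.0176, 0.00215 and 0.0145). ZCCHC2 gave 0.05 without shared-sequence probe sets, and TNFRSF11A and BCL2 lost their calls with several arrays left out (adjusted p up to 0.133 and 0.0691). Called genes of both directions thus lay inside and outside the cluster. The nearest flanking genes, KDSR (0.0034) and VPS4B (0.29), named after their values were seen, did not pass.

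In clade A, 0 of 10 measured members passed the limma test, beside 29.6% of all genes and 10.8% of those at or below the median level, where 9 of the 10 lay. At an unadjusted p under 0.05 there was 1, SERPINA5, and the unmoderated test passed 0. Its best measured member was SERPINA1, alpha-1-antitrypsin, the inhibitor of neutrophil elastase and the only clade A gene above the median level. Probe set 211429_s_at read 9.05, 8.96 and 8.85 with DMSO and 8.96 and 9.02 with SAHA. The groups overlapped, and the difference was 0.04 ± 0.07 (limma adjusted p = 0.735) with a 95% interval from -0.15 to 0.23. Its other 3 probe sets gave 0.0068, -0.11 and -0.27, and none passed.

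SERPINA5, the protein C inhibitor, read 5.77, 5.95 and 5.78 with DMSO and 5.99 and 6.32 with SAHA, a difference of 0.32 ± 0.12 (limma adjusted p = 0.127). Both SAHA arrays were the higher, but the difference was -0.05 when centred on the poly-A controls. SERPINA3 (antichymotrypsin) had the lowest difference, -0.25 ± 0.11 (adjusted p = 0.186), with SAHA array 2 equal to DMSO array 2. The hormone carriers SERPINA6 (cortisol) and SERPINA7 (thyroxine), which do not inhibit proteases, gave -0.03 and 0.02. SERPINA4 (kallistatin), SERPINA9 (centerin), SERPINA10 (the protein Z-dependent inhibitor) and SERPINA12 (vaspin) gave -0.13, 0.0085, -0.05 and -0.02, and the pseudogene SERPINA2 -0.07. Without SAHA array 2, SERPINA4 (-0.35) and SERPINA2 (-0.13) passed as lower. Of the 11 hepatocyte markers measured, 1 fell, beside 10.8% of genes of such level. It was APOA1, which fell by 0.26 (adjusted p = 0.0274) and lost its call in 4 of 5 omissions of an array (up to 0.0997). All 11 of 11 lay below the median gene. Their summed level was 9.52 to 9.59 with DMSO and 9.48 to 9.57 with SAHA.

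The secreted members of clades C, D, F and G did not pass either. Antithrombin (SERPINC1) gave 0.02, heparin cofactor II (SERPIND1) -0.14, pigment epithelium-derived factor (SERPINF1), which does not inhibit proteases, 0.09, alpha-2-antiplasmin (SERPINF2) 0.04 and the C1 inhibitor (SERPING1) 0.08. All 5 had overlapping arrays and levels below the median gene. Without SAHA array 2, SERPIND1 passed as lower at -0.29. Over all 23 serpins that did not pass, differences ran from -0.25 to 0.32 and their 95% limits from -0.54 to 0.64. These intervals hold array-to-array spread only, not the choice of normalization, so they do not exclude larger changes. With centring on the poly-A controls SERPINA3 gave -0.62, beyond the lowest limit. On the arrays, 4 of the 23 had equal values with DMSO throughout and 5 with SAHA. Centred on the poly-A controls, 23 of the 31 serpins fell, beside 14548 of all 19775 genes, a similar share.

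**Figure D4:**
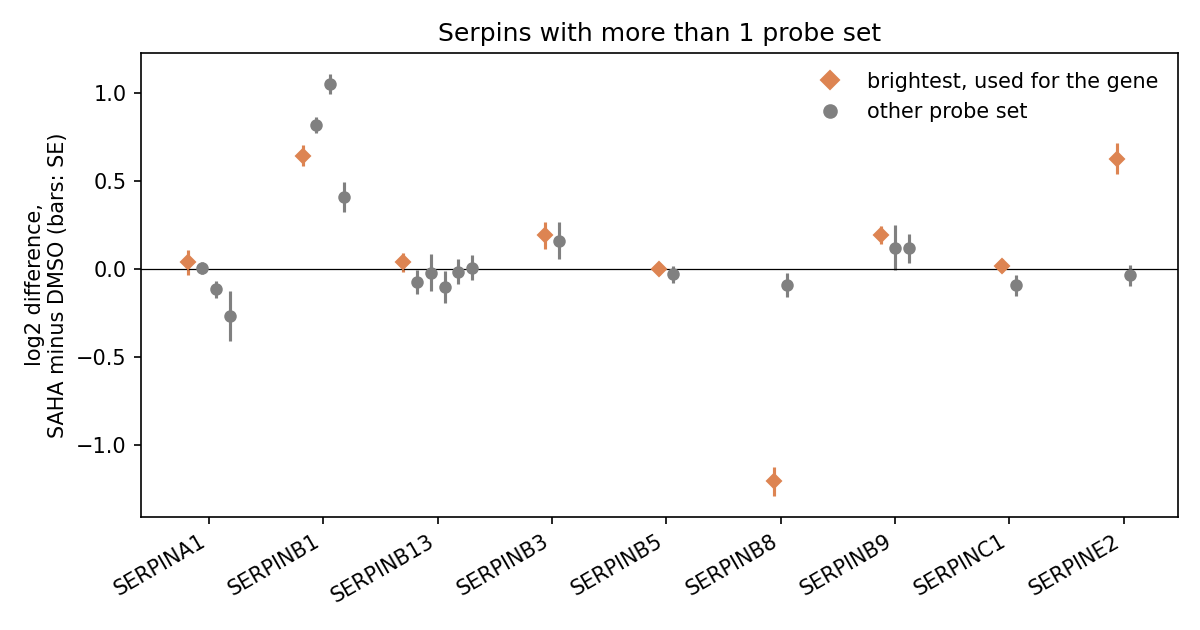
Log2 difference (SAHA minus DMSO) with its SE for every probe set of the 9 serpins that have more than 1 (diamond, brightest and used for the gene; circle, other). The 4 SERPINB1 probe sets all lie above 0, while SERPINE2 and SERPINB8 each have a second probe set near 0.

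A list of plasminogen and coagulation proteases, receptors and related genes, among them the inhibitors TFPI and TFPI2, was read from the same fit. Not every member is a target or receptor of a serpin. Of 20 plasminogen and coagulation genes measured, 6 rose and 3 fell, with a median of 0.0068. The shares beside this are 29.6% of all genes and 48.4% of those above the median level, where 13 of the 20 lay. TFPI2, a matrix-bound Kunitz inhibitor, rose 2.84-fold, with an SE of 0.06 on the log2 scale (limma adjusted p = 0.000548). The protein C receptor PROCR rose by 1.23 ± 0.09 (0.00154) and tissue factor F3 by 1.17 ± 0.12 (0.00353). The tissue factor pathway inhibitor TFPI fell by 1.54 ± 0.18 (0.00458). The call of F3 was lost with the replicate number as a block (adjusted p = 0.0666).

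The proteases that SERPINI1 and SERPINE2 trap were named after their values were seen. PLAT, tissue plasminogen activator, read 10.82, 10.92 and 10.82 with DMSO and 11.94 and 11.91 with SAHA. It rose by 1.07 ± 0.05 or 2.10-fold (limma adjusted p = 0.000661), in the same direction as its inhibitors SERPINI1 and SERPINE2. PLAU, urokinase, read 12.71, 12.82 and 12.90 and then 11.99 and 11.88, and fell by 0.87 ± 0.08 (adjusted p = 0.00214), against the direction of SERPINE2. PLAUR, the urokinase receptor, fell by 0.34 ± 0.06 (adjusted p = 0.017), but gave -0.05 without shared-sequence probe sets and lost its call without DMSO array 2 or 3 or either SAHA array (adjusted p up to 0.0973). Thrombin's gene F2 gave -0.09 (adjusted p = 0.631).

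Of the 7 genes measured from a list for serpin clearance or binding, VLDLR and LRP1 rose and none fell, a share close to the 29.6% of all genes. VLDLR read 7.80, 7.93 and 7.91 with DMSO and 9.64 and 9.47 with SAHA, a rise of 1.67 ± 0.07 or 3.19-fold (limma adjusted p = 0.000611). LRP1 rose by 0.31 ± 0.07 (adjusted p = 0.0302), yet centring on the poly-A controls turned it to -0.064 and leaving out shared-sequence probe sets to -0.055. It lost its call in 4 of 5 omissions of an array (adjusted p up to 0.131).

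Among 19 intracellular and membrane proteases that serpins target, 2 rose and 2 fell, beside 29.6% of all genes changed. Both falls were of lysosomal cathepsins, CTSS by 1.02 ± 0.10 (limma adjusted p = 0.00323) and CTSL by 0.45 ± 0.06 (0.0079), and the related CTSV rose by 0.89 ± 0.08 (0.00227). PCSK5, a furin relative, rose by 0.99 ± 0.17 (0.0147), but gave 0.0010 without shared-sequence probe sets and lost its call with any of 4 arrays left out (adjusted p up to 0.109). CTSL lost its call without either SAHA array (adjusted p up to 0.0587). FURIN, the target of SERPINB8, had a difference of -0.10 (0.362), ELANE, that of SERPINB1, -0.04 (0.559), and GZMB, that of SERPINB9, 0.03 (0.648). These 3 were named after their values were seen, for the serpins they meet. Of 14 kallikrein-related peptidases 0 passed, with KLK6 at -0.27 (0.218) and KLK2 at -0.11 (0.31). Of 7 complement genes 0 passed, with C1QC at -0.22 (0.342) and C1QB at -0.08 (0.652). At an unadjusted p under 0.05 limma passed 0 of either list, and the unmoderated test also 0. Of all genes at or below the median level, where 12 of the 14 and all 7 lay, 10.8% passed.

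SERPINH1 works beside the enzymes that modify procollagen in the endoplasmic reticulum, and 18 genes of that list were measured. Of these, 7 rose and 3 fell, with a median of 0.11, beside 48.4% of all genes above the median level, where 14 of the 18 lay. PLOD2, a lysyl hydroxylase, read 10.93, 11.03 and 10.69 with DMSO and 13.08 and 12.56 with SAHA, a rise of 1.94 ± 0.19 or 3.83-fold (limma adjusted p = 0.00304). This is opposite in direction to the fall of SERPINH1. P3H2, a prolyl 3-hydroxylase, rose by 1.06 ± 0.08 (adjusted p = 0.00148), though the difference was -0.23 without shared-sequence probe sets. FKBP14, a prolyl isomerase, rose by 0.76 ± 0.08 (0.00367).

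KDELR3, a receptor that returns chaperones such as SERPINH1 to the endoplasmic reticulum, fell by 0.89 ± 0.06 (limma adjusted p = 0.00125). CRTAP, the cartilage-associated partner of the prolyl 3-hydroxylases, fell by 0.74 ± 0.05 (0.00104), and was named after its value was seen. PLOD3, the other that fell (-0.40), and PPIB, cyclophilin B, at 0.0056 and not passing, were named likewise. The list therefore held changes in both directions around the fall of SERPINH1.

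**Figure D5:**
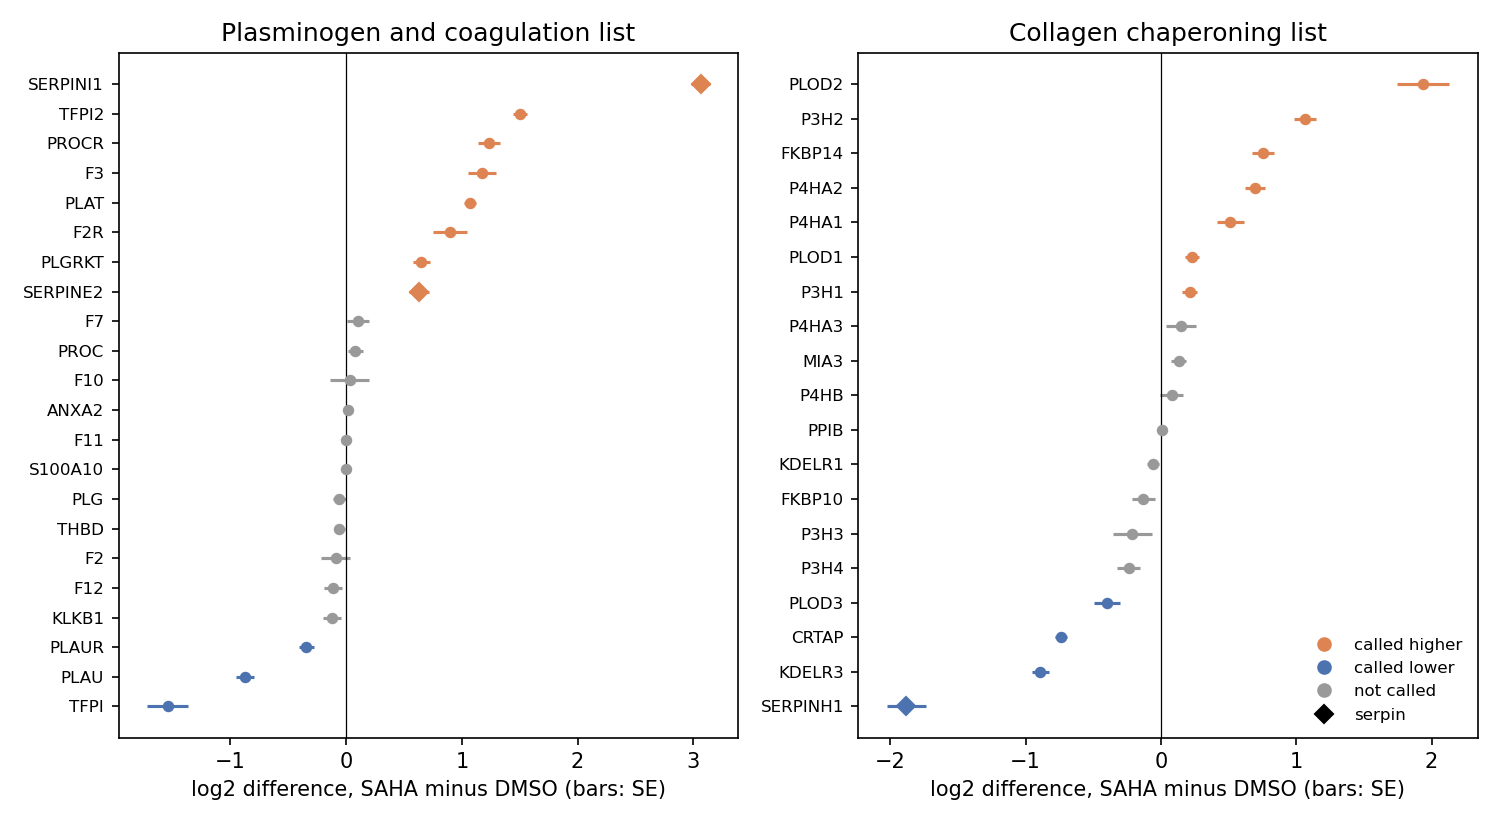
Log2 difference (SAHA minus DMSO) with its SE for the plasminogen and coagulation list with SERPINI1 and SERPINE2 (left) and the collagen list with SERPINH1 (right); diamonds are serpins and colours give the limma call. SERPINI1 lies above all 20 genes of the left list, and SERPINH1 below all 18 of the right list.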

How the data were processed

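Total RNA of the 5 samples was amplified, labelled with biotin and hybridised to single-colour arrays, per the labels. The authors deposited linear intensity values for 54675 probe sets, made with RMA in R 2.12 per the submitters' processing notes. RMA corrects background, aligns the arrays' distributions and summarises probes, so a shift of all transcripts one way is removed. The genome build used for the array is not given in the sources used here. The number of arrays limits the precision.

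Log2 was taken and nothing was normalized again. Gene tests used the 41091 probe sets with 1 gene. They left out 62 controls, 1801 with several genes and 11721 for which none was given. The brightest probe set stood for a gene, with no filter on level. SAHA and DMSO were compared over 19775 genes using limma 3.58.1 under R 4.3.3 (functions lmFit and eBayes, two-sided, without covariates; data.table, version 1.17.8) at an adjusted p under 0.05, with 3 residual and 1.62 prior degrees of freedom. Probe sets were fitted separately, with adjustment over 41091. Symbols were updated through RefSeq genes (assembly GRCh38.p14), which also gave the gene order. Promoter motifs were searched with Python 3.11.15 and identities aligned with Biopython 1.88. Figures used matplotlib 3.10.9.

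The members, gene lists and alternatives were chosen with earlier results of these data known. Per-array values are given for each serpin that passed or lay above the median gene. Of each other list, up to 4 genes that passed are named, by size, or the 2 largest where 0 passed. Other genes named, and the per-array values of SERPINA5, SERPINB3 and some listed genes, were chosen after the values were seen. Marker lists were squamous, hepatocyte, mesenchymal, luminal and leukocyte genes. Alternatives were renormalization, centring on ribosomal, median or poly-A control values, a filter on dim genes (40th percentile), averaged probe sets, no shared-sequence probe sets (_s_at, _x_at), a variance trend, array weights, the replicate number as a block, an unmoderated test, 32 added to intensities, a threshold of 0.01 and each array left out. On simulated data of 19775 genes, the fit recovered 82% of 100 genes changed 2-fold and 34% of 100 changed by 0.5 (log2), and 3 of its 119 calls were of unchanged genes. The simulation changed only these genes and gave each array independent noise, while 29.6% of genes were called in the data. Its shares are therefore not the recovery or error rate of this experiment.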

Additional observations from a re-analysis of the deposited data

How the results depend on the processing

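SERPINI1, SERPINB7, SERPINB8, SERPINH1 and SERPINB1 kept their direction and call in every alternative that could be run for them; SERPINE2 lost its call with centring on the poly-A controls only. That centring gave 1361 of 19775 genes higher and 14548 lower (2760 and 3089 as deposited). It gave 23 of 31 serpins lower in place of 2, a share similar to that of all genes. Of these, 6 were in clade B in place of 1, all 6 in the 18q21 cluster in place of 1. It turned SERPINA1 (-0.33), SERPINA7 (-0.35), SERPINA9 (-0.36), SERPINB13 (-0.33), SERPINA5 (-0.05), SERPINB3 (-0.18), SERPINB9 (-0.18), SERPINC1 (-0.35), SERPINF1 (-0.28), SERPINF2 (-0.33), SERPING1 (-0.29), LRP1 (-0.064) and PDCD10 (-0.041), and moved SERPINB5 from 0 to -0.37. Without shared-sequence probe sets, 26 serpins were left: SERPINB7, SERPINB4, SERPINB3, SERPINH1 and SERPINA9 had none, and SERPINB9 missed the threshold (adjusted p = 0.0504). This left 3 serpins higher in place of 6 and 1 lower in place of 2, with 1 higher in clade B in place of 4 and 0 in the cluster in place of 2; LRP1 (-0.055) and P3H2 (-0.23) turned. With the replicate number as a block, 1262 genes were higher and 1316 lower, 2 clade B serpins were higher and 1 in the cluster. Replicate numbers were not shown to pair the samples: deviations of same-numbered arrays correlated at 0.15 and -0.07, and only 2 numbers are shared. The unmoderated test gave 1538 higher and 1831 lower, and a threshold of 0.01 gave 1544 and 1773; either left 2 clade B serpins higher, 1 of them in the cluster. Adding 32 to intensities, or leaving out dim genes, also left 1 cluster serpin higher. With 1 array left out, 1769 to 2234 genes were higher and 1985 to 2797 lower, 4 to 5 serpins higher and 2 to 7 lower (7 without SAHA array 2), 2 to 3 of clade B higher and 1 to 3 lower, and 1 to 2 of the cluster higher and 1 to 3 lower. The causes of these changes were not tested. Without detection calls it is unknown how far the dim serpins stood above background.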

Other observations

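A list of non-serpin antiproteases, with angiotensinogen (AGT) as a non-inhibitory relative of clade A, had 15 measured genes. Of these, 2 rose and 1 fell, beside 29.6% of all genes changed, and the median difference was 0.0073. CST6, cystatin M, which inhibits cathepsins L and V, rose by 0.86 ± 0.08 (limma adjusted p = 0.00227) and kept its call in all 18 alternative settings. The metalloprotease inhibitor TIMP2 rose by 0.38 ± 0.07 (adjusted p = 0.0142), a difference of 0.01 with centring on the poly-A controls, and lost its call without DMSO array 2 or SAHA array 1. SPINT2, a Kunitz inhibitor of hepsin and matriptase, fell by 0.37 ± 0.06 (adjusted p = 0.0109), and its call was lost without DMSO array 2 or either SAHA array. SLPI and PI3, inhibitors of neutrophil elastase as SERPINB1 is, were named after their values were seen. They gave 0.11 and -0.03 and did not pass.

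Among marker lists, mesenchymal breast genes had 2 rises (SNAI2 by 0.44 and FN1 by 0.41) and 2 falls (LOX by 0.72 and AXL by 0.33) of 10, beside 29.6% of all genes changed. Centred on the poly-A controls, SNAI2 gave 0.07 and FN1 0.03 and neither passed, and LOX and AXL lost their calls in 3 and 4 of 5 omissions of an array (adjusted p up to 0.0787 and 0.0909). Luminal breast genes had 2 rises (CDH1 by 1.64 and ERBB3 by 1.61) and 2 falls (EPCAM by 0.72 and GATA3 by 0.26) of 10. CDH1 was dim, with means of 4.67 with DMSO and 6.31 with SAHA, both below the median gene at 7.58. With 32 added to intensities CDH1 gave 0.95 and passed. With probe sets averaged, CDH1 gave 0.77 and ERBB3 0.61, and both passed. GATA3 lost its call in 4 of 5 omissions of an array (adjusted p up to 0.123) and EPCAM without SAHA array 2 (0.0657). Of 6 leukocyte markers measured, CD14 rose by 0.87 (limma adjusted p = 0.00562) and PTPRC fell by 0.34 (0.0176). CD14 lost its call without either SAHA array (adjusted p up to 0.0674), and PTPRC in 4 of 5 omissions (up to 0.104), with -0.013 when shared-sequence probe sets were left out. PTPRC, at a DMSO mean of 3.78, gave -0.09 with 32 added to intensities and did not pass. The other 4, LYZ (-0.35), NKG7 (-0.17), CD3E (-0.14) and ITGAM (-0.05), did not pass. Only CD14 was higher with SAHA, and the median difference of the list was -0.16. None of the 6 lay above the median gene in level. The summed level of the 6 was 8.76 to 8.91 with DMSO and 9.02 with SAHA. The part of these in the rise of SERPINB1 and SERPINB9, which leukocytes express, was not tested.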
